A study of Homo sapiens with 25 samples.

Results

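The 10 genes described here encode Polycomb and DNA methylation proteins and were taken by gene symbol from the 58302 genes counted in each library. EZH2, EZH1, EED and SUZ12 belong to Polycomb repressive complex 2 (PRC2), BMI1 and CBX7 to Polycomb repressive complex 1 (PRC1), DNMT1 and UHRF1 to maintenance DNA methylation, and DNMT3A and DNMT3B to de novo DNA methylation. All 10 were detected in all 25 libraries and passed the filter on low counts in every fit. The libraries came from hiF-T cells, a line of human fibroblast-like cells that was derived from BJ skin fibroblasts. The line carries a telomerase gene (hTERT), and the genotype is given as WT. Cells were left ungated or were sorted into low, midlow, midhigh and high dye accumulation, with 4 libraries in each of these 5 groups, which makes 20 libraries in the sort set. The drug set of 5 libraries held DOT1L inhibition as replicate 1, LSD1 inhibition as replicates 1 and 2, DMSO as replicate 1 and no drug as replicate 2. The labels name no compound, dose or duration, give no treatment for the sorted cells, and do not tell which dye level goes with slow division, although the design text says that sorting followed proliferation status.

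PRC2 places methyl groups on lysine 27 of histone H3. EZH2 and its paralog EZH1 are its alternative catalytic subunits, and EED and SUZ12 are core subunits that either enzyme needs. PRC1 ubiquitinates histone H2A and compacts chromatin, with BMI1 (PCGF4) as a RING finger partner and CBX7 as a reader of methylated H3. DNMT1 copies CpG methylation onto the new DNA strand behind the replication fork, where UHRF1 binds hemimethylated CpG and recruits it, whereas DNMT3A and DNMT3B methylate DNA that carried no mark. In cultured fibroblasts EZH2, DNMT1 and UHRF1 are known as genes of dividing cells, and EZH1 is known to persist in non-dividing cells.

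Each library held 15015039 to 20030093 gene counts. No library was a copy of another in its group, since a chi-square test of any such pair gave at least 8.22 per degree of freedom. The fibroblast identity was checked on 15 markers. COL1A1, COL1A2, FN1 and VIM were abundant in all 25 libraries, at 1623 counts per 1e+06 gene counts (CPM) or more, whereas THY1 did not exceed 1.72 CPM. Other markers were also low in some libraries. LUM spanned 0.627 to 28.5 CPM, DCN 0.802 to 41.1 CPM, S100A4 2.59 to 12.6 CPM, PDGFRA 6.78 to 27.8 CPM and COL3A1 10.4 to 166 CPM. COL5A1, PDGFRB, FAP, TWIST1 and PRRX1 stood at 15.9 CPM or more. Of 7 epithelial markers KRT8 stood at 21.7 to 67.0 CPM and EPCAM reached 2.96 CPM, while KRT5, KRT14 and KRT1 of keratinocytes had at most 3 counts in any library. Of 7 melanocyte markers MITF had 11 to 209 counts and MLANA 5 to 22 counts per library, while SOX10 had 0 counts in all. Of 6 endothelial markers TEK stood at 36.5 to 101 CPM, and PECAM1 and CDH5 did not exceed 0.574 CPM. The part of other cell types in the member results was not tested. Bulk RNA cannot tell fewer cells of a type from less RNA per cell.

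The promoters of the 5 members that carry letters of an E2F site are shown because E2F factors are textbook regulators of S phase genes, and the members in question changed in both directions between the dye gates. Promoter windows were taken from RefSeq (GRCh38.p14), from 250 bases before to 50 bases after an annotated transcription start, and all 10 members matched. The E2F letters searched on both strands were TTTGGCGC, TTTGCCGC, TTTCGCGC and TTTCCCGC. At least 1 of them occurred in 3.31% of 35116 windows and in 3.99% of 27305 genes, against 5 of the 10 members and 20 of the 37 S phase genes with a window (54.1%). Stretches are written 5′ to 3′ on the strand of the gene with the matching letters in capitals, from chr7:148884282-148884541 (minus strand) for EZH2, chr17:42745041-42745290 (minus) for EZH1, chr17:31936757-31937006 (plus) for SUZ12, chr19:10194946-10195203 (minus) for DNMT1 and chr19:4909251-4909500 (plus) for UHRF1.
EZH2: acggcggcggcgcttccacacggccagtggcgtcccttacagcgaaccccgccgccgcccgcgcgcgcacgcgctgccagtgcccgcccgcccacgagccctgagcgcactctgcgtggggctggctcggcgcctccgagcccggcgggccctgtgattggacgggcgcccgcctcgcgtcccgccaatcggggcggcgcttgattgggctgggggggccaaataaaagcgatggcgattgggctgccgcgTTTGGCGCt
EZH1: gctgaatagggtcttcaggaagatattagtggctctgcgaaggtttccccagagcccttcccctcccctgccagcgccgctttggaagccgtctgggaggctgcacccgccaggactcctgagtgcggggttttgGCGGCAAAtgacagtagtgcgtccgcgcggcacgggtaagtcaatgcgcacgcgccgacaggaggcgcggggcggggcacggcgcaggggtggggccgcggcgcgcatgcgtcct
SUZ12: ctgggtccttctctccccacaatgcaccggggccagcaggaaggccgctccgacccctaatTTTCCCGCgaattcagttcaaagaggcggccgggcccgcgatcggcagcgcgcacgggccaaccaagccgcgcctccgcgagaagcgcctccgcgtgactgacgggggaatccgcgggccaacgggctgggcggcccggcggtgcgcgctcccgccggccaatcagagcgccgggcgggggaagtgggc
DNMT1: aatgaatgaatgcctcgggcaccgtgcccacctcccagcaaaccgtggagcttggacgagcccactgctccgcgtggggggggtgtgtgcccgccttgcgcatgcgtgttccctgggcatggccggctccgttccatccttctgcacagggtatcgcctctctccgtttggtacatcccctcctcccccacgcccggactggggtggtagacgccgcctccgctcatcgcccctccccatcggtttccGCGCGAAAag
UHRF1: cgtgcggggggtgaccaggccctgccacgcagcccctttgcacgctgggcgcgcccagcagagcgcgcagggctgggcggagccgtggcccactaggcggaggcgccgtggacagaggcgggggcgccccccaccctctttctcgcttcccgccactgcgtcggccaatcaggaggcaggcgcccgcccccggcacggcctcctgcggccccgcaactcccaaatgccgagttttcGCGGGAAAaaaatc
The first base of the letters lay at +2 from the start in EZH2, at -115 in EZH1, at -189 in SUZ12, at -2 in DNMT1 and at -14 in UHRF1, on the opposite strand in EZH1, DNMT1 and UHRF1. A further UHRF1 window held TTTCGCGC at -160. No such letters were found in the windows of EED, BMI1, CBX7, DNMT3A and DNMT3B. The same windows were also searched for TTTGAA and CCAAT, which are not in capitals above. TTTGAA occurred in windows of SUZ12 and DNMT3A, against 18.2% of genes. CCAAT occurred in windows of EZH2, EED, SUZ12, CBX7, UHRF1 and DNMT3B, against 39.7% of genes. A match of letters is a description of the sequence and not a measured site.

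Levels of different genes were compared as TMM-scaled CPM per kilobase of countable exon, within the sort set. DNMT1 was the most abundant member, at 23.8 ± 5.49 CPM per kilobase in high dye and 38.5 ± 1.70 in low dye cells (SD, n = 4 each). UHRF1 followed at 14.7 ± 4.16 in high dye and 29.6 ± 2.16 CPM per kilobase in low dye cells. EZH2, SUZ12 and BMI1 formed the next tier, at 9.61 ± 2.88, 10.98 ± 1.37 and 11.1 ± 1.46 CPM per kilobase in high dye cells, where their means differed by less than the SD of EZH2. In low dye cells the same genes stood at 15.7 ± 0.794, 14.6 ± 0.745 and 11.9 ± 2.22 CPM per kilobase. EZH1 and EED were lower, with EZH1 at 4.17 ± 0.924 in high dye and 3.10 ± 0.309 in low dye cells, and EED at 3.50 ± 0.527 in high dye and 4.34 ± 0.464 CPM per kilobase in low dye cells. DNMT3A (1.65 ± 0.407 in high dye, 1.61 ± 0.357 in low dye) and DNMT3B (0.808 ± 0.221 and 0.824 ± 0.123 in the same order) were scarce. CBX7 was the lowest, at 0.187 ± 0.0204 in high dye and 0.178 ± 0.0613 CPM per kilobase in low dye cells.

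EZH2 made up 68.7 ± 9.72% of the summed EZH2 and EZH1 level per kilobase in high dye cells, against 83.5 ± 1.88% in low dye cells (SD, n = 4 each). Its share in single libraries spanned 58.9% to 80.2% in high dye and 81.2% to 85.5% in low dye, so EZH2 was the more abundant paralog in each of these 8 libraries. DNMT1 made up 90.5 ± 1.31% of the summed level of DNMT1, DNMT3A and DNMT3B per kilobase in high dye and 94.0 ± 1.13% in low dye cells. Within the de novo pair, DNMT3B contributed 33.2 ± 8.69% in high dye and 34.2 ± 5.69% in low dye cells. These shares are of RNA and depend on the exon lengths of GENCODE 29, which may not be the annotation used for counting.

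The outer gates were compared to ask how RNA of these enzymes differs with dye accumulation. EZH2, SUZ12, EED, DNMT1 and UHRF1 were lower in high dye cells and EZH1 was higher, while BMI1, CBX7, DNMT3A and DNMT3B did not pass the test. Thus 6 of the 10 members were called by edgeR's quasi-likelihood test at a Benjamini-Hochberg adjusted p under 0.05, against 17.7% of the 14592 genes tested. By direction, 1 member was higher (background 9.39%) and 5 were lower (background 8.35%). The 4 high and 4 low dye libraries did not overlap for EZH2, SUZ12, DNMT1 and UHRF1, or 4 of 10 members, against 19.0% of all genes tested. The median log2 fold change was -0.36 over the 4 PRC2 members, -0.85 over the maintenance pair, 0.00243 over the de novo pair and 0.00783 over all genes tested. Fits with the replicate number as a block called the same 6 members, where the background was 37.2%.

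EZH2 (ENSG00000106462, chromosome 7 from 148807383 to 148884321, minus strand, GRCh38) had 35.2, 49.9, 30.2 and 58.5 CPM in high dye replicates 1 to 4, against 71.5, 66.3, 71.6 and 75.0 CPM in low dye replicates 1 to 4. Every high dye library lay below every low dye library, and high dye replicates 1 and 3 were the lowest. The log2 fold change was -0.71 ± 0.17 (SE), with an adjusted p of 0.00903 in edgeR's quasi-likelihood test (Benjamini-Hochberg).

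EZH1 (ENSG00000108799, chromosome 17 from 42700275 to 42745049, minus strand) had 37.9, 28.5, 27.9 and 22.4 CPM in high dye replicates 1 to 4, against 23.0, 23.6, 18.8 and 21.2 CPM in low dye. Each high dye library exceeded the low dye library of its own number, in 4 of 4 pairs, although the groups overlapped because high dye replicate 4 lay below low dye replicates 1 and 2. The log2 fold change was 0.43 ± 0.12, with an edgeR adjusted p of 0.0203. Without high dye replicate 1 the change was 0.27 and the edgeR adjusted p 0.105, and the call was also lost without low dye replicate 3 (adjusted p 0.0768) or low dye replicate 4 (adjusted p 0.0507).

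The shared PRC2 subunits moved with EZH2 and by less. SUZ12 (ENSG00000178691, chromosome 17 from 31937018 to 32001045, plus strand) had 65.1, 79.8, 63.3 and 79.5 CPM in high dye replicates 1 to 4, against 89.2, 93.9, 100.4 and 97.6 CPM in low dye. The groups did not overlap, and the log2 fold change was -0.41 ± 0.08 with an edgeR adjusted p of 0.00333. Its pseudogene SUZ12P1 had 81 to 195 counts per library, so some reads of the near-identical copies may have been split. EED (ENSG00000074266, chromosome 11 from 86244544 to 86278813, plus strand), the subunit that binds trimethylated H3, had 22.3, 29.4, 21.1 and 24.4 CPM in high dye replicates 1 to 4, against 31.6, 32.8, 25.5 and 30.7 CPM in low dye. High dye replicate 2 exceeded low dye replicate 3, so these groups overlapped, although EED was lower in high dye in 4 of 4 pairs. The change of -0.31 ± 0.10 on the log2 scale had an edgeR adjusted p of 0.0354, which rose above 0.05 without 6 of the 8 single libraries, namely high dye replicates 1, 3 and 4 and low dye replicates 1, 2 and 4 (0.0505 to 0.134). It was also lost with no filter on low counts (adjusted p 0.104).

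**Figure D1:**
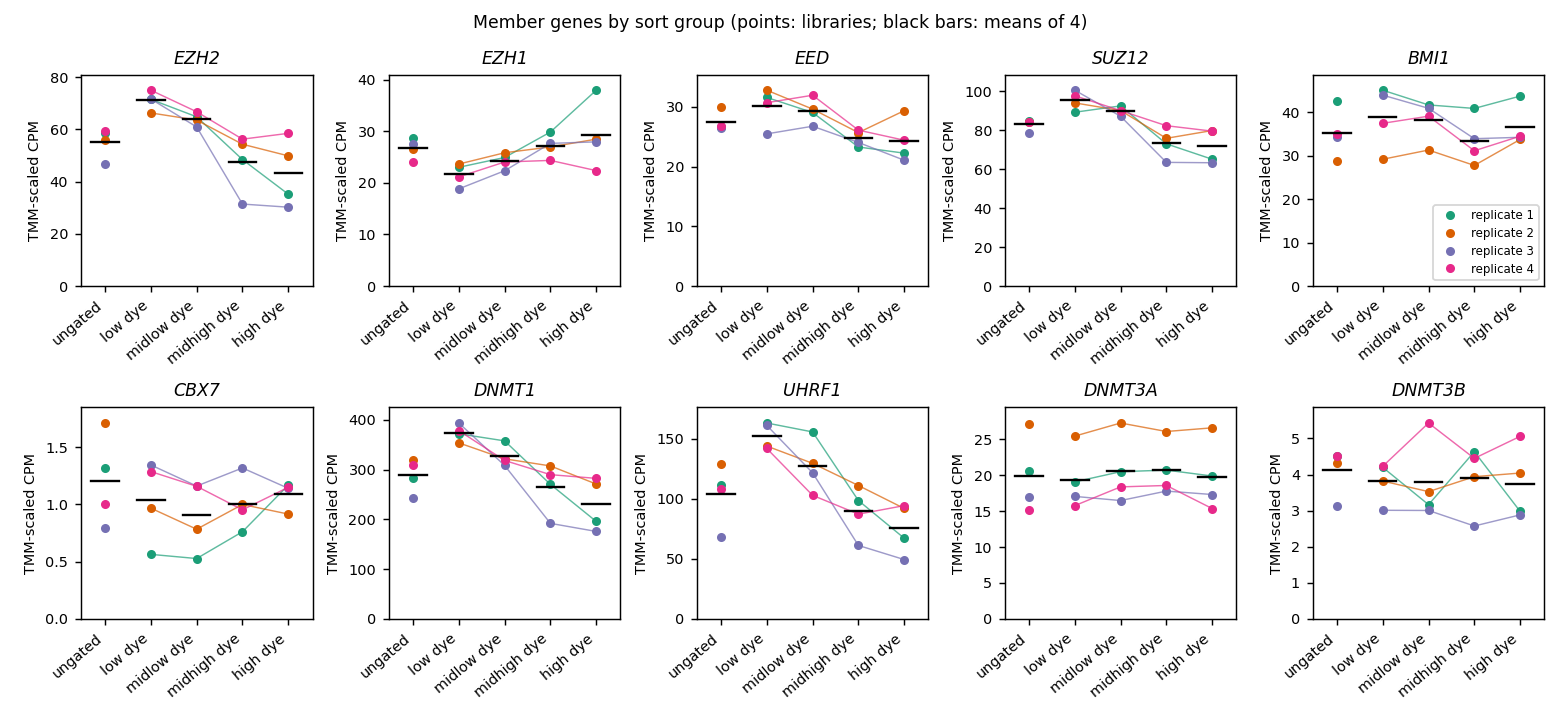
TMM-scaled CPM (vertical axis, from 0, a scale of its own for each gene) of the 10 member genes in ungated, low, midlow, midhigh and high dye cells (horizontal axis). Points are libraries coloured by replicate number, lines join the gated libraries of 1 number, and black bars are means of 4. The means of EZH2, SUZ12, DNMT1 and UHRF1 step down from low to high dye, with EZH2 at 71.1 CPM in low and 43.4 CPM in high dye, while the mean of EZH1 steps up and those of DNMT3A stay between 19.3 and 20.8 CPM in the 5 groups.

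The PRC1 members showed no call between the outer gates. BMI1 (ENSG00000168283, chromosome 10 from 22321211 to 22331484, plus strand) had 43.7, 33.7, 34.2 and 34.5 CPM in high dye replicates 1 to 4, against 45.1, 29.2, 43.9 and 37.5 CPM in low dye. The groups overlapped, and the log2 fold change of -0.09 had a 95% interval of -0.40 to 0.22 (edgeR adjusted p 0.723). Only 76.7% of its exon length is free of other genes in GENCODE 29, and the readthrough gene COMMD3-BMI1 overlaps it, so reads that the counting gave to several genes are missing from its level. CBX7 (ENSG00000100307, chromosome 22 from 39120167 to 39152674, minus strand) had 1.17, 0.916, 1.14 and 1.15 CPM in high dye replicates 1 to 4, against 0.564, 0.968, 1.35 and 1.29 CPM in low dye. These rest on 9 to 32 counts per library over the series, and the interval of the log2 fold change, -0.56 to 0.70, leaves changes of either sign undetectable at this depth. Of its exon length 78.4% is free of other genes, the rest being shared with COX5BP7 and the antisense gene AL031846.2, and a kit that does not mark strand cannot separate reads of antisense partners.

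Maintenance methylation genes were lower in high dye cells. DNMT1 (ENSG00000130816, chromosome 19 from 10133345 to 10231286, minus strand) had 196, 271, 176 and 282 CPM in high dye replicates 1 to 4, against 372, 354, 394 and 378 CPM in low dye. The groups did not overlap, and high dye replicate 3 was the lowest of the 20 sort libraries. The log2 fold change was -0.69 ± 0.15 with an edgeR adjusted p of 0.00391. UHRF1 (ENSG00000276043, chromosome 19 from 4903080 to 4962154, plus strand) had 67.2, 91.9, 49.4 and 94.2 CPM in high dye replicates 1 to 4, against 163, 144, 161 and 142 CPM in low dye. It had the largest change among the 10 members, with a log2 fold change of -1.01 ± 0.21, or 0.497 of the low dye level (edgeR adjusted p 0.00382), and no overlap between the groups.

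The de novo methyltransferases did not pass the test. DNMT3A (ENSG00000119772, chromosome 2 from 25227855 to 25342590, minus strand) had 19.9, 26.6, 17.3 and 15.4 CPM in high dye replicates 1 to 4, against 19.1, 25.4, 17.0 and 15.8 CPM in low dye. Replicate 2 was the highest in all 5 sort groups, at 25.4 to 27.2 CPM. Its log2 fold change was 0.03 with a 95% interval of -0.40 to 0.47, or 0.03 ± 0.07 with the replicate block (edgeR adjusted p 0.777). DNMT3B (ENSG00000088305, chromosome 20 from 32762385 to 32809356, plus strand) had 2.98, 4.04, 2.88 and 5.06 CPM in high dye replicates 1 to 4, against 4.20, 3.82, 3.01 and 4.23 CPM in low dye. The 95% interval of its log2 fold change was -0.51 to 0.45, from 41 to 89 counts per library over the series.

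Whether EZH2 moved against EZH1, and maintenance against de novo methylation, was tested on the log2 ratio of counts within each library (0.5 added to each count), which does not depend on the scaling of libraries. The log2 ratio of EZH2 over EZH1 was -0.11, 0.81, 0.11 and 1.39 in high dye replicates 1 to 4, against 1.63, 1.49, 1.93 and 1.83 in low dye. No high dye library reached the lowest low dye library, and in high dye replicate 1 EZH1 had more counts than EZH2. The means were 0.55 ± 0.68 in high dye cells, against 1.72 ± 0.20 in low dye cells (SD, n = 4 each), a difference of -1.17 with a two-sided exact permutation p of 0.0286, which is the smallest that 70 assignments can give, and 0.0476 after Benjamini-Hochberg adjustment over the 5 ratios tested.

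Ratios to DNMT3B also separated the outer gates. DNMT1 over DNMT3B averaged 5.95 ± 0.12 in high dye cells, against 6.62 ± 0.27 in low dye cells on the log2 scale, and UHRF1 over DNMT3B averaged 4.32 ± 0.20 in high dye cells, against 5.32 ± 0.29 in low dye cells (SD, n = 4 each). Their differences were -0.67 and -1.0, each with an exact permutation p of 0.0286 and an adjusted p of 0.0476. Ratios to DNMT3A overlapped between the gates. DNMT1 over DNMT3A averaged 3.55 ± 0.43 in high dye cells, against 4.30 ± 0.36 in low dye cells, a difference of -0.75, and UHRF1 over DNMT3A averaged 1.92 ± 0.48 in high dye cells, against 3.00 ± 0.34 in low dye cells, a difference of -1.08. Each of these 2 differences had an exact permutation p of 0.0571, both before and after adjustment. Within replicate numbers all 5 ratios were lower in high dye cells, in 4 of 4 pairs, for which exact sign flips cannot go below p = 0.125.

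**Figure D2:**
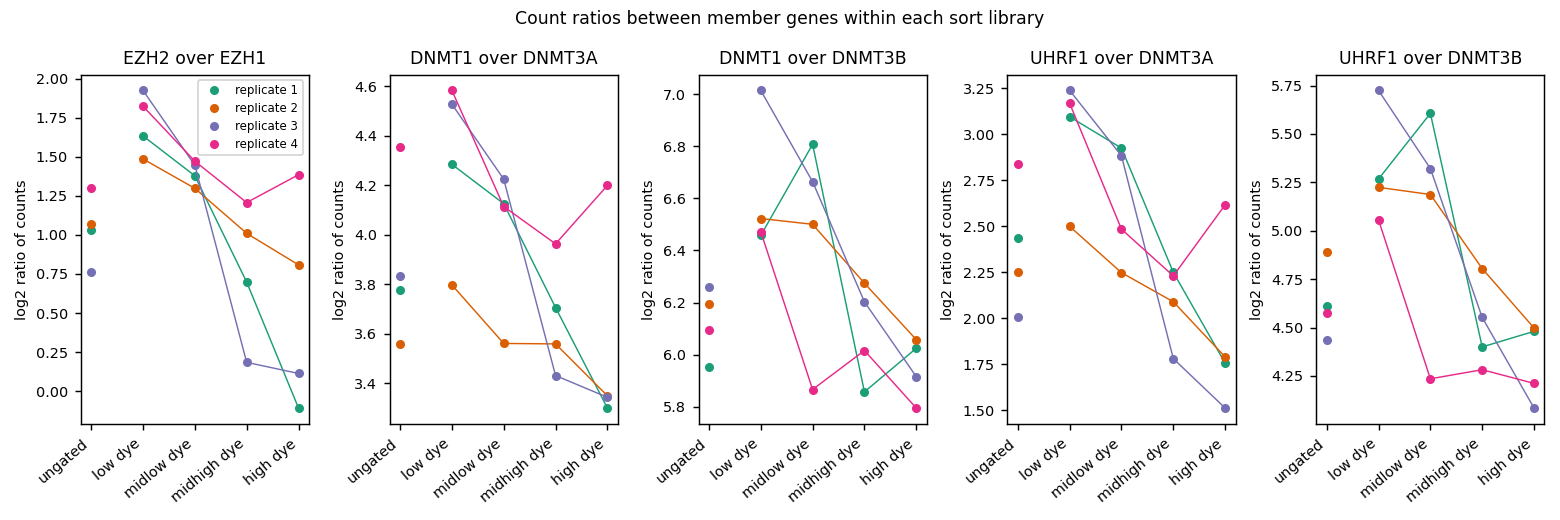
Log2 ratio of counts between member genes within each library (vertical axis, a scale of its own for each ratio) by sort group (horizontal axis). Points are libraries coloured by replicate number and lines join the gated libraries of 1 number. EZH2 over EZH1 lies between 1.49 and 1.93 in the 4 low dye libraries and between -0.11 and 1.39 in the 4 high dye libraries, and replicate 4 differs least between high and low dye in EZH2 over EZH1.

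The whole series of gates was used in a trend over the 16 gated libraries with low, midlow, midhigh and high dye in equal steps. The equal steps are assumed, since the labels carry no dye measurements. The same 6 members passed, against 26.2% of 14419 genes, with 1 rising (background 14.0%) and 5 falling (background 12.3%). With the replicate block the same 6 passed, against 43.8%. Per step, UHRF1 changed by -0.35 ± 0.06, EZH2 by -0.26 ± 0.06, DNMT1 by -0.24 ± 0.04, SUZ12 by -0.15 ± 0.03, EED by -0.12 ± 0.03 and EZH1 by 0.14 ± 0.04 log2 units (SE), with edgeR adjusted p from 0.000612 (UHRF1) to 0.0129 (EED). All 6 were called without any single library. BMI1, CBX7, DNMT3A and DNMT3B had slopes between -0.05 and 0.04 log2 units per step and did not pass.

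**Figure D3:**
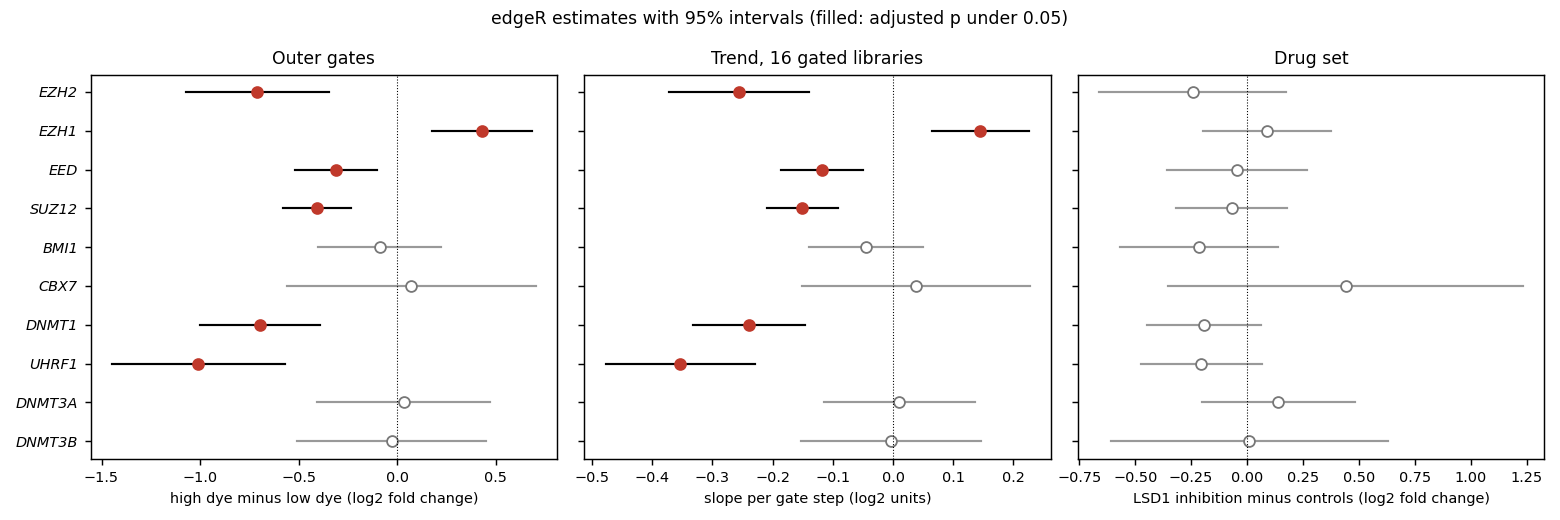
Estimates (points) with 95% intervals (lines) from edgeR for the 10 members, as the high dye minus low dye log2 fold change, the slope per gate step, and the LSD1 inhibition minus control log2 fold change (horizontal axes, log2 units). Filled points passed an adjusted p of 0.05 in edgeR's fit without the replicate block. UHRF1 lies farthest to the left between the outer gates at -1.01 and EZH1 is the only filled point to the right of 0, at 0.43, while in the drug set all 10 points are open.

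Between the inner gates the 6 members called between the outer gates had estimates of the same sign and smaller size, whereas BMI1 (-0.19) and CBX7 (0.17) had larger estimates than between the outer gates and DNMT3B (0.05) had the opposite sign. EZH2 had 48.4, 54.3, 31.4 and 56.2 CPM in midhigh dye replicates 1 to 4, against 64.8, 63.6, 60.9 and 66.7 CPM in midlow dye, without overlap. No member passed edgeR's test between midhigh and midlow dye, where 0 of 14592 genes did (0%). At an unadjusted edgeR p under 0.05, 4 of 10 members differed, against 1891 of 14592 genes. DESeq2 called 0 members, against 122 genes. With the replicate block 4 members were lower in midhigh dye, against a background of 5.27% lower and 10.8% in either direction. These were EZH2 (-0.45, edgeR adjusted p 0.0222), SUZ12 (-0.29, adjusted p 0.00952), EED (-0.24, adjusted p 0.0369) and UHRF1 (-0.53, adjusted p 0.0288). DNMT1 stood at -0.32 (adjusted p 0.0559) in that fit, and its 4 midhigh dye libraries lay below its 4 midlow dye libraries. EZH2, EED and SUZ12 did not overlap either, which makes 4 of 10 members, against 8.19% of all genes tested.

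Ungated cells lay between the outer gates in the means of the 6 members that were called. EZH2 averaged 43.4 ± 13.04 CPM in high dye, 71.1 ± 3.59 CPM in low dye and 55.1 ± 5.72 CPM in ungated cells (SD, n = 4 each). EZH1 averaged 29.2 ± 6.46 CPM in high dye, 21.7 ± 2.16 CPM in low dye and 26.7 ± 1.99 CPM in ungated cells. Neither outer gate gave a member call against ungated cells without the block, where edgeR called 0.00685% of genes for high dye and 0.0754% for low dye. At an unadjusted edgeR p under 0.05, 3 members differed for high dye, against 1543 of 14592 genes, and 5 for low dye, against 1898. DESeq2 called 0 members in each, against 19 genes for high dye and 188 for low dye.

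With the replicate block, low dye differed from ungated cells in 4 members (background 10.8%, or 3.59% higher and 7.20% lower). EZH2 (0.38, edgeR adjusted p 0.0466), DNMT1 (0.39, adjusted p 0.0213) and UHRF1 (0.59, adjusted p 0.0170) were higher in low dye, and EZH1 (-0.30, adjusted p 0.0393) was lower. The low dye and ungated libraries of these 4 genes did not overlap, nor did those of SUZ12 (0.20, adjusted p 0.0569 with the block), which makes 5 of 10 members, against 7.98% of all genes tested. High dye against ungated cells gave 0 member calls with the block as well (background 7.59%), with UHRF1 at -0.46, EZH2 at -0.36 and DNMT1 at -0.33 on the log2 scale. Both comparisons share the 4 ungated libraries, and whether the distance from them differed between high and low dye was not tested.

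Markers of cell division moved with these genes. Of 42 S phase genes 40 were lower in high than in low dye (median log2 fold change -0.86, range -1.30 to -0.20). Of 37 G2 and mitosis genes 24 were lower (median -0.70), against 8.35% of all genes tested. With the replicate block 41 S phase genes and 34 G2 and mitosis genes were lower, where 37.2% of all genes were called in either direction. Averaged over the S phase list, log2(CPM + 1) was 4.90, 5.51, 4.75 and 5.69 in high dye replicates 1 to 4, against 6.03, 5.99, 6.20 and 6.17 in low dye. High dye replicates 1 and 3, the lowest in EZH2, DNMT1 and UHRF1, were also the lowest in this list, and high dye replicates 2 and 4 came nearest to low dye. The summed level of the list ranged from 1519 to 2905 CPM in high dye and from 3683 to 4227 CPM in low dye, and none of its genes was at 0 in all libraries. Other measures moved as well. High dye replicates 1 and 3 had 24237 and 26481 genes detected, and high dye replicates 2 and 4 had 22630 and 21991, against 22480 to 23040 in low dye. Of 15 fibroblast markers 5 were higher and 0 lower in high dye (median log2 fold change 0.38), against 9.39% higher and 8.35% lower over all genes. With the replicate block 9 were higher and 3 lower, where 37.2% of all genes were called. Summed levels of these markers were 22401 to 30660 CPM in high dye and 18086 to 19970 CPM in low dye. The part of dividing cells, of genes detected and of fibroblast markers in the member results was not tested.

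Members were also set against the S phase list within each library. EZH2 minus the list mean was 0.22 ± 0.05 log2 units in high dye cells, against 0.07 ± 0.07 in low dye cells (SD, n = 4 each). DNMT1 stood at 2.62 ± 0.12 in high dye cells, against 2.45 ± 0.05 in low dye cells, and UHRF1 at 1.00 ± 0.14 in high dye cells, against 1.16 ± 0.14 in low dye cells. SUZ12 was at 0.97 ± 0.28 in high dye cells, against 0.49 ± 0.06 in low dye cells. EZH1 was at -0.32 ± 0.69 in high dye cells, against -1.60 ± 0.24 in low dye cells. These differences are descriptions without a test, and all points of 1 library share its scaling.

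**Figure D4:**
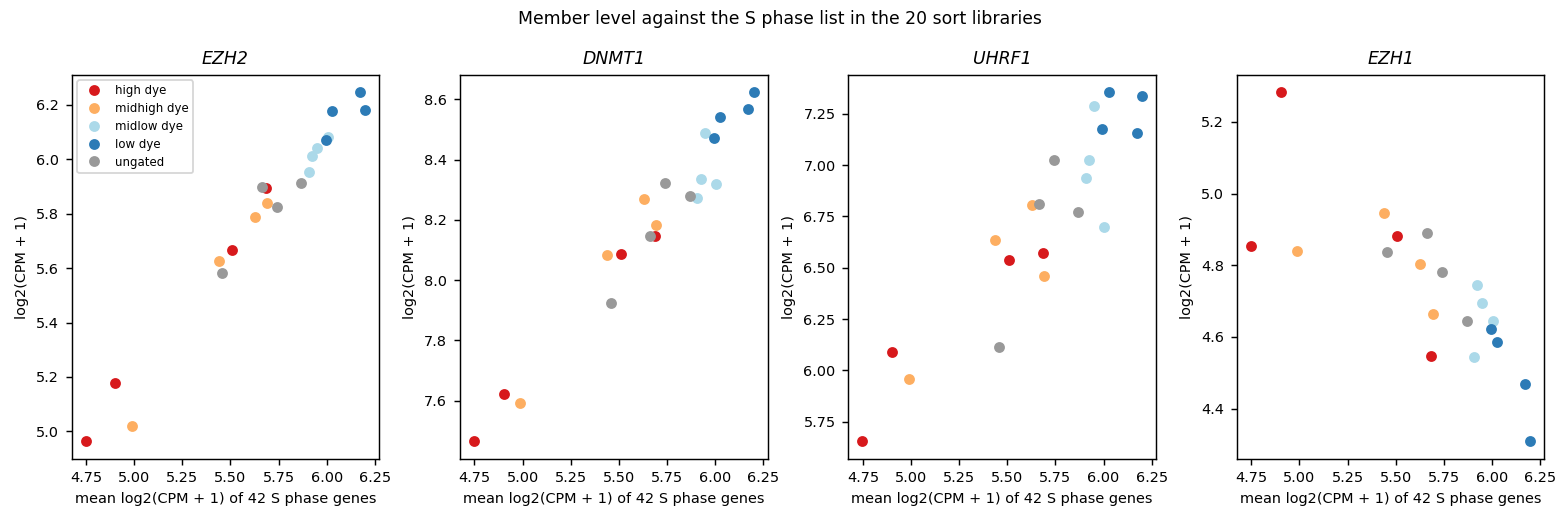
Level of EZH2, DNMT1, UHRF1 and EZH1 as log2(CPM + 1) (vertical axes) against the mean log2(CPM + 1) of 42 S phase genes (horizontal axes) in the 20 sort libraries, coloured by sort group. High dye libraries spread from 4.75 to 5.69 on the horizontal axis and low dye libraries from 5.99 to 6.20. EZH2, DNMT1 and UHRF1 run upwards with the list and EZH1 runs downwards.

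The nearest genes in pattern were found by the root mean square (RMS) difference of centred log2 CPM over the 20 sort libraries among 14591 other genes. For EZH2 these were LIG1 (DNA ligase 1, 0.0727), PTMA (prothymosin alpha, 0.0761) and NCAPG2 (a condensin II subunit, 0.0780), against an SD of 0.370 for EZH2 itself. LIG1 was at -0.69 ± 0.17 between high and low dye (edgeR adjusted p 0.00909), near the value of EZH2. For DNMT1 they were PARP1 (0.0611), POLE (the catalytic subunit of DNA polymerase epsilon, 0.0696) and again LIG1 (0.0753), against its own SD of 0.324. UHRF1 had MCM5, a subunit of the replicative helicase (0.109), then PAQR4 and LMNB2, against its own SD of 0.480. EZH1 was nearest to the membrane protease ADAM17 (0.0639, at 0.36 ± 0.11 with an edgeR adjusted p of 0.0254), then GSDME and TRIM2, against its own SD of 0.207.

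A further 63 genes of Polycomb and DNA methylation lists were listed, of which 59 were tested. Between high and low dye 3 were higher and 13 were lower, or 27.1% against 17.7% of all genes, with a median log2 fold change of -0.13. With the replicate block 7 were higher and 21 lower, where the background was 37.2%. In the trend over gates 6 rose and 15 fell, or 35.6% against 26.2% of all genes, and with the block 9 rose and 23 fell (background 43.8%). None was called between the inner gates or against ungated cells by edgeR without the block. With it, 2 were higher and 7 lower in midhigh than in midlow dye (background 10.8%), 1 was higher and 4 lower in high dye than in ungated cells (background 7.59%), and 8 were higher in low dye than in ungated cells (background 10.8%).

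Among 9 tested accessory genes of PRC2, 1 was higher and 4 were lower in high dye (median -0.33), against 9.39% higher and 8.35% lower over all genes. With the block JARID2, a further accessory subunit, was also higher (0.34, edgeR adjusted p 0.00382). PHF19, a Polycomb-like protein that directs PRC2 to chromatin, averaged 68.7 ± 23.3 CPM in high dye cells, against 117 ± 6.06 CPM in low dye cells, or -0.77 ± 0.21 on the log2 scale (edgeR adjusted p 0.0162). Its relative PHF1 went the other way, at 45.2 ± 2.79 CPM in high dye cells, against 36.8 ± 2.64 CPM in low dye cells, or 0.29 ± 0.08 (adjusted p 0.0166). Among 22 other PRC1 genes 1 was higher and 3 were lower, a share near the 17.7% of all genes, and with the block 3 were higher and 7 lower, beside 37.2% of all genes. CBX2, a Polycomb reader, averaged 5.95 ± 2.81 CPM in high dye cells, against 12.9 ± 0.961 CPM in low dye cells, at -1.11 ± 0.29 (adjusted p 0.0143). PCGF6 changed by -0.54 ± 0.13 and PCGF1 by 0.44 ± 0.12, both alternative RING finger partners in the place that BMI1 takes.

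Of 7 other genes of DNA methylation 6 were tested and 5 were lower in high dye (median -0.42), against 8.35% of all genes. DNMT3L had 0 counts in all 4 high and all 4 low dye libraries. The CDCA7 and HELLS proteins form a nucleosome remodeller needed for maintenance methylation. CDCA7 averaged 28.9 ± 9.93 CPM in high dye cells, against 69.8 ± 4.13 CPM in low dye cells, the largest change among these lists, at -1.27 ± 0.19 (edgeR adjusted p 0.000551). HELLS averaged 37.9 ± 15.98 CPM in high dye cells, against 71.4 ± 8.95 CPM in low dye cells, at -0.91 ± 0.24 (adjusted p 0.0136). UHRF2, the paralog of UHRF1, was at -0.33 ± 0.13 and did not pass without the block (adjusted p 0.0859), but passed with it (-0.33, adjusted p 0.000851) and in the trend (-0.12 ± 0.04 per step, adjusted p 0.0381). Of 7 tested genes of DNA demethylation TET3 alone was called, at -0.49 ± 0.15 (adjusted p 0.0341). Of 8 methyl-CpG binding genes ZBTB4 alone was called, at 0.23 ± 0.07 (adjusted p 0.0336), beside 17.7% of all genes. With the block the methyl-CpG binding glycosylase MBD4 was called as well (-0.26, adjusted p 0.0235). None of 7 tested genes of H2A deubiquitination and H3K27 demethylation was called without the block. With it KDM6B, an H3K27 demethylase, was higher (0.36, edgeR adjusted p 0.0126) and FOXK1 (-0.14, adjusted p 0.0432) and FOXK2 (-0.15, adjusted p 0.0326) were lower. The blocked fit called 37.2% of all genes. These blocked calls, MBD4 and JARID2 included, were named after their values were seen.

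Genes known to be silenced by these enzymes were listed as well. At the INK4 locus, a textbook target of PRC2 and PRC1 in fibroblasts, CDKN2A averaged 22.2 ± 2.83 CPM in high dye cells, against 15.8 ± 2.60 CPM in low dye cells (SD, n = 4 each), at 0.49 ± 0.12 (edgeR adjusted p 0.0114). CDKN2B averaged 10.8 ± 2.69 CPM in high dye cells, against 4.92 ± 0.353 CPM in low dye cells, at 1.13 ± 0.20 (adjusted p 0.00188). These were 2 of 2 tested genes of the locus, against 9.39% higher over all genes. No histone mark was measured, and a link between these genes and the members was not tested. Of 18 germline genes that DNA methylation keeps silent in somatic cells 0 passed the filter on low counts. The highest was SYCP3 at 0.626 CPM, with over 3 counts in 14 of 25 libraries. MAGEA1 and MAGEA4 had 0 counts in all 25 libraries, below a limit of 0.150 to 0.200 CPM that 3 counts set. Summed over the list, levels were 0.431 to 1.68 CPM in high dye and 0.184 to 0.641 CPM in low dye. These ranges overlapped, and their difference was not tested.

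In the drug set, levels were scaled apart from the sort set and are not compared with it. LSD1 is a demethylase of lysine 4 of histone H3, and DOT1L is the methyltransferase of lysine 79. None of the 10 members was called between the 2 LSD1 inhibition libraries and the 2 controls (DMSO and no drug), where edgeR called 16 of 14002 genes (0.114%), or 108 to 331 genes with 1 library left out. No member had an unadjusted edgeR p under 0.05, against 950 genes, and DESeq2 called 0 members, against 122 genes. These fits had no replicate block. With the block EZH2 (-0.25), DNMT1 (-0.20) and UHRF1 (-0.20) were lower, at edgeR adjusted p of 0.0117, 0.00781 and 0.0257. The blocked fit called 2242 of 14002 genes, and its 2 pairs share only a number. In that fit 12 of 42 S phase genes and 30 of 37 G2 and mitosis genes were also lower, against 968 of all 14002 genes. Without the block 0 genes of either list were called. The part of dividing cells in these calls was not tested.

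EZH2 had 43.8 and 32.4 CPM in LSD1 inhibition replicates 1 and 2, against 49.6 CPM in DMSO and 41.0 CPM in the no drug library, and the groups overlapped. DNMT1 had 211 and 189 CPM under LSD1 inhibition, against 233 CPM in DMSO and 227 CPM with no drug. UHRF1 had 57.4 and 54.8 CPM under LSD1 inhibition, against 61.6 CPM in DMSO and 68.3 CPM with no drug. DNMT1, UHRF1, SUZ12 and CBX7 did not overlap between LSD1 inhibition and controls, or 4 of 10 members, against 34.1% of all genes tested with these 2 and 2 libraries. For EZH2, whose groups overlapped, the log2 fold change was -0.24 with a 95% interval of -0.66 to 0.17. The change was -0.19 (-0.45 to 0.06) for DNMT1 and -0.20 (-0.48 to 0.07) for UHRF1.

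CBX7 had 1.41 and 1.94 CPM under LSD1 inhibition, against 1.24 CPM in DMSO and 1.24 CPM with no drug, at 0.44 on the log2 scale with an interval of -0.35 to 1.23. It was the largest change in size among the members here and rested on the lowest counts. EZH1 (0.09), EED (-0.04), SUZ12 (-0.07), BMI1 (-0.21), DNMT3A (0.14) and DNMT3B (0.01) had intervals that included 0. The S phase list averaged 5.26 and 4.98 log2 units in LSD1 inhibition replicates 1 and 2, against 5.40 in DMSO and 5.19 with no drug, and its part in these values was not tested. The log2 ratio of EZH2 over EZH1 was 0.54 and 0.02 under LSD1 inhibition, against 0.72 in DMSO and 0.53 with no drug. None of the 59 further genes was called without the replicate block.

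The single DOT1L inhibition library was compared with DMSO without a test. EZH2 had 36.0 CPM under DOT1L inhibition, against 49.6 CPM in DMSO, a log2 ratio of -0.46 with a 95% interval of -0.62 to -0.31 that covers counting error only. SUZ12 had 61.8 CPM, against 77.5 CPM in DMSO (-0.33), and BMI1 32.5 CPM, against 40.9 CPM in DMSO (-0.33). DNMT1 stood at -0.21 and UHRF1 at -0.21, while DNMT3A was at 0.23, with 21.8 CPM under DOT1L inhibition and 18.6 CPM in DMSO. The intervals of EZH1 (0.11), EED (-0.04), CBX7 (0.08) and DNMT3B (-0.02) included 0. None of the 10 members passed a change of 1.5-fold, against 14.1% of 14990 genes, and the S phase list averaged 5.18 log2 units under DOT1L inhibition and 5.40 in DMSO. Per kilobase, EZH2 made up 63.1% of EZH2 plus EZH1 under DOT1L inhibition and 71.8% in DMSO.

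**Figure D5:**
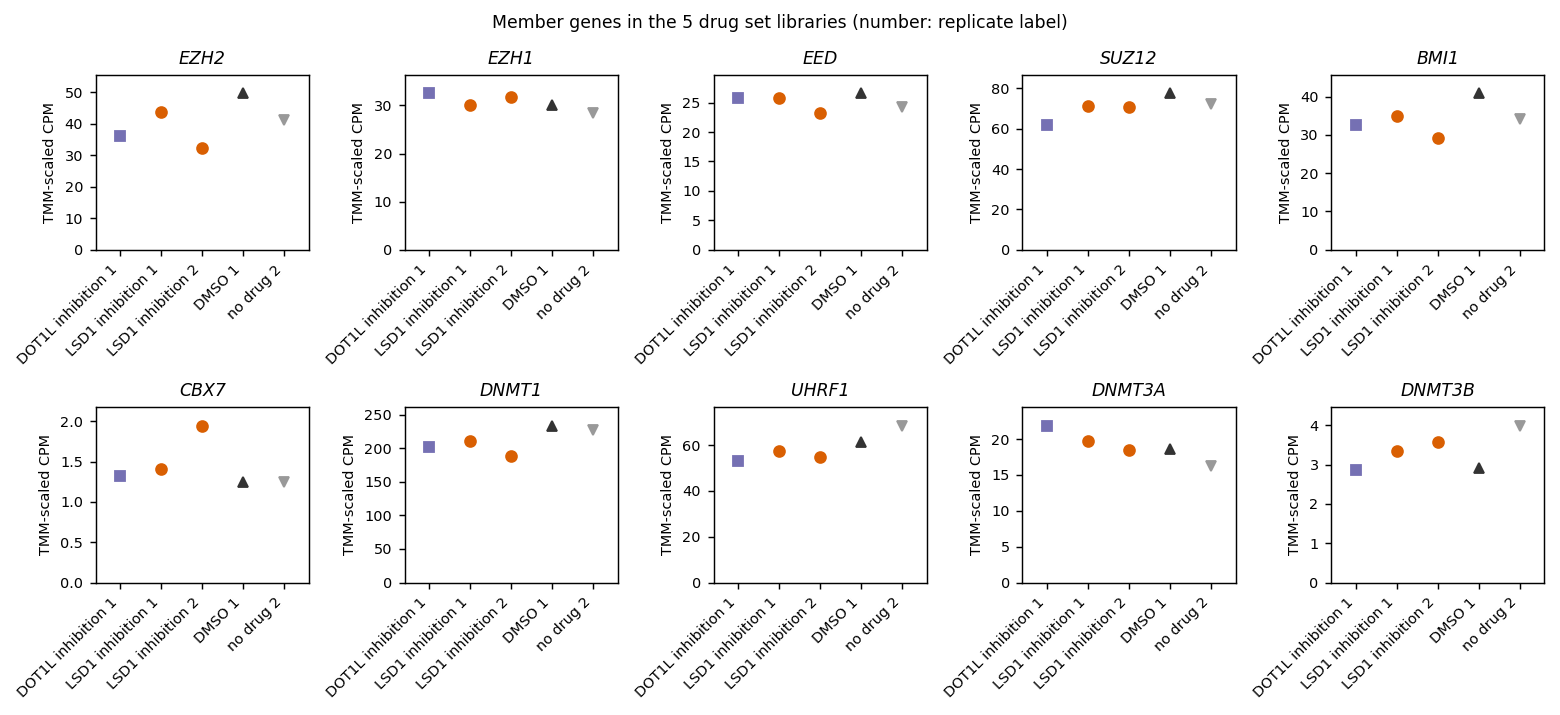
TMM-scaled CPM (vertical axis, from 0, a scale of its own for each gene) of the 10 member genes in the 5 libraries of the drug set (horizontal axis, with the replicate label). Each point is 1 library. EZH2 stands at 36.0 CPM under DOT1L inhibition, 43.8 and 32.4 CPM under LSD1 inhibition, 49.6 CPM in DMSO and 41.0 CPM with no drug, so its LSD1 inhibition libraries lie on either side of the no drug library.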

How the data were processed

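Bulk poly(A) RNA-seq of hiF-T cells was analysed from 25 libraries. Per the labels' protocols, RNA was extracted with RNeasy Micro and libraries were made with a NEBNext Ultra II RNA kit, which does not mark strand. Alignment with STAR and counting with HTSeq on hg38 (GRCh38) are given per the submitters' processing notes. Versions, annotation release and strand setting are not given in the sources used here. The authors deposited unnormalized counts for each Ensembl gene. Reads that HTSeq gave to no feature (4.33% to 7.72%) or to several (7.14% to 7.62%) stayed out of library sizes. Of 58302 genes 57532 had a symbol and 58039 were in GENCODE 29, which gave coordinates and exon lengths, and lengths shared with another gene were left out of the countable length.

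Tests used edgeR 4.0.16 under R 4.3.3 (quasi-likelihood F test, TMM, filterByExpr with a minimum count of 10 and a minimum total of 15), adjusted by Benjamini-Hochberg over all genes and called under 0.05. The 20 sort libraries shared 1 fit, the trend used the 16 gated ones and the drug set had its own fit. Standard errors come from the F statistic. DOT1L inhibition was a log2 ratio with a prior count of 2. CPM and CPM per kilobase are given as mean ± SD. The scripts were tested on simulated data. Intervals and limits for counts cover counting error only.

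Biological replicates are named in the labels, which state no pairing, and nothing there says whether they were separate cultures, so p-values may measure technical spread. After removal of group means, all 40 same-number pairs of sort libraries correlated above 0.1 across genes (0.154 to 0.748), against 19 of 120 pairs with different numbers, so the numbers pair these samples. Fits with the replicate block are therefore given where they change a member's call or a list count that is quoted here. Other alternatives were DESeq2 1.42.0 (Wald test and size factors), no filter, only the 8 compared libraries, other pseudocounts, and each library left out in turn.

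The members and gene lists were chosen with earlier results of these data known. Named genes were the 10 members, at most 6 called genes per direction with the largest change among 6 other chromatin lists, the 3 nearest genes in pattern for 4 members, and CDKN2A and CDKN2B. Genes quoted for markers or for shared reads were named beside these. The melted table of all samples was left out.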

Additional observations from a re-analysis of the deposited data

Results flagged for a closer look

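In 7 of 60 groups of 4 libraries, 1 library stood apart from the other 3 by Dixon's criterion at the 95% level, where chance flags about 1 in 20. They concerned levels of 5 members and 2 ratios, and none was a level of EZH2, EZH1, DNMT1 or UHRF1.

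BMI1 was at 43.7 CPM in high dye replicate 1, against 33.7 to 34.5 CPM in the other high dye libraries. CBX7 was at 0.916 CPM in high dye replicate 2, against 1.14 to 1.17 CPM in the others. In ungated cells EED was at 30.1 CPM in replicate 2 (others 26.4 to 26.8 CPM), SUZ12 at 78.3 CPM in replicate 3 (others 84.1 to 84.8 CPM) and DNMT3B at 3.13 CPM in replicate 3 (others 4.33 to 4.53 CPM). The log2 ratio of DNMT1 over DNMT3A was 4.20 in high dye replicate 4, against 3.30 to 3.35 in the other high dye libraries, and that of DNMT1 over DNMT3B was 7.02 in low dye replicate 3, against 6.46 to 6.52 in the other low dye libraries.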

How the results depend on the processing

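Between high and low dye, EZH2, SUZ12, DNMT1 and UHRF1 kept direction and call under every alternative run. EZH1 and EED kept direction but lost the call when only the 8 compared libraries were fitted (0.43, adjusted p 0.0956, and -0.31, adjusted p 0.126). The member count was 5 with no filter, 4 with only the 8 libraries, and 4 to 6 with 1 library left out, lowest without high dye replicate 1 or without low dye replicate 4. Over all genes, 2589 calls became 5433 with the replicate block, 1497 with only the 8 libraries and 1255 to 2965 with 1 library left out. The trend kept 6 member calls in every alternative run, and its 3784 calls over all genes became 6317 with the block. Over all genes, midhigh against midlow dye gave 0 calls, or 1574 with the block, 122 by DESeq2 and 99 with no filter. High dye against ungated cells gave 1, or 1107, 19 and 25 in the same order, low dye against ungated cells 11, or 1575, 188 and 177, and LSD1 inhibition 16, or 2242, 122 and 0. With 1 library left out LSD1 inhibition gave 331 (without no drug replicate 2), 232 (without DMSO replicate 1), 131 (without LSD1 inhibition replicate 2) and 108 (without LSD1 inhibition replicate 1).

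The replicate block gave 4 member calls for midhigh against midlow dye, 4 for low dye against ungated cells and 3 for LSD1 inhibition against controls, each from 0, and changed no other call of a member. The 3 under LSD1 inhibition were EZH2 (-0.25), DNMT1 (-0.20) and UHRF1 (-0.20), with adjusted p of 0.0117, 0.00781 and 0.0257, beside 2242 of 14002 genes called. Of the 59 further genes 3 were then higher and 7 lower, but 2 pairs of the drug set share only a number. For the ratios, exact sign flips within pairs (replicate block) left the differences at -1.17 (EZH2 over EZH1), -0.67 (DNMT1 over DNMT3B) and -1.0 (UHRF1 over DNMT3B) with p = 0.125, the smallest possible. With 1 library left out these lay at -1.45 to -0.95, -0.72 to -0.54 and -1.09 to -0.86, where the exact p cannot go below 0.0571.

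Signs turned for members without a call. With no filter DNMT3A was at -0.0146 between midhigh and midlow dye and DNMT3B at -0.000763 under LSD1 inhibition. With 1 library left out, values between high and low dye were -0.13 to 0.20 for CBX7, -0.15 to 0.19 for DNMT3A and -0.21 to 0.0779 for DNMT3B. Between midhigh and midlow dye they were -0.0248 to 0.30, -0.12 to 0.17 and -0.0544 to 0.26 for the same genes. Between high dye and ungated cells they were -0.0259 to 0.24 for EZH1, -0.0453 to 0.16 for BMI1, -0.30 to 0.0615 for CBX7 and -0.19 to 0.17 for DNMT3A, and between low dye and ungated cells -0.21 to 0.14 for DNMT3A. Trend slopes were -0.0119 to 0.0838 for CBX7, -0.0337 to 0.0487 for DNMT3A and -0.0513 to 0.0266 for DNMT3B, and under LSD1 inhibition EED spanned -0.11 to 0.0241 and DNMT3B -0.20 to 0.26. The cause of these turns was not tested. CBX7 rested on 9 to 32 and DNMT3B on 41 to 89 counts per library.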
